A study of Rattus norvegicus with 15 samples.

Results

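Genes whose intestinal signal was present in one rat strain and at or near background in the other were collected from the deposited arrays of Goto-Kakizaki (GK) and Wistar rats. A named probe entered if it was well above background on all 10 GK arrays and on at most 1 of the 5 Wistar arrays, or on all 5 Wistar arrays and on at most 2 of the 10 GK arrays, with a GK mean at least 2 log2 units from the Wistar mean in the deposited matrix. Of 22503 named probes, 148 (0.658%) differed by that much and 26 (0.116%) met both conditions. After leaving out 4 probes of gene families set aside by name (MHC, glucuronosyltransferase, cytochrome P450, alcohol dehydrogenase, aldo-keto reductase, sialyltransferase St6gal and interferon-induced Ifit symbols), 22 probes of 22 genes remained among 17337 named genes. Signal was on in GK for 12 of them (Acad9, Crtac1, Vom2r10, RGD1566265, S100a8, Ttpa, Pigzl1, LOC680758, Myh13, LOC363337, LOC100363529 and Nudcd1) and on in Wistar for 10 (Cdc25a, Slc27a5, St8sia6, Osbp2, Adcy10, Spock2, Sult1c2, Ldhc, Vit and Kif11).

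All rats were male, with 1 array per rat and 5 rats per group. The GK strain was derived from Wistar rats by selection for poor glucose tolerance and is diabetic without being obese. Both GK groups were operated on at the age of 16 wk. GK-S-30 rats underwent Roux-en-Y gastric bypass (RYGB) with a Roux limb (RL, the segment joined to the stomach) of 30 cm. GK-Sham-PF rats were cut and rejoined 16 cm from the ligament of Treitz and pair-fed. Wistar rats were age-matched, nondiabetic and had no operation. RNA came from the RL or the corresponding intestinal segment, at 14 wk postoperation in the GK groups. Strain, diabetes, operation and feeding therefore cannot be told apart between GK and Wistar, whereas GK-S-30 against GK-Sham-PF compares operations within the strain. Enterocyte genes were well above background on all 15 arrays in 12 of 12 measured markers. Of 6 pancreatic acinar markers, Cela1, Ctrb1 and Cel were also above background on all 15 arrays and Pnlip on none.

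An on-off pattern on a microarray belongs to the probe. Each probe reads 60 bases of a transcript, and inbred lines derived from an outbred stock can differ from it in the sequence, splicing, copy number or activity of a gene. Such genes are of interest as strain markers beside genes that respond to disease or treatment. The genes were thus selected on their GK and Wistar detection calls and mean difference, which are given below as a description without a test. Signals are log2 values of the processed signal after quantile normalization.

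Sequences of 7 probes are shown with their rn4 positions, because they are the stretches on which the on-off reading of these genes rests or the stretches that members share. The LOC363337 and LOC100363529 probes, annotated at chrUn:37086501-37087025 and chrUn_random:3713854-3722300, have an identical run of 25 bases, in capitals. The other probes are in lower case throughout, and none had more than 10 bases in common with another member.
LOC363337: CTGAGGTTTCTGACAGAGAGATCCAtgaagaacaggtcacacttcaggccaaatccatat
LOC100363529: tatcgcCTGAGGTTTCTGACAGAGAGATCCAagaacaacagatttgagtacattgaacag
S100a8: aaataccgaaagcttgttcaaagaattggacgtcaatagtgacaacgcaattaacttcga
Slc27a5: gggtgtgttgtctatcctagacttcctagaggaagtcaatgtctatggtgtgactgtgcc
Kif11: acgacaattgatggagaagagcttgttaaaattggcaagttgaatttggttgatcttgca
Myh13: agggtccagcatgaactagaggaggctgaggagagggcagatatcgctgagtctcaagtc
Ldhc: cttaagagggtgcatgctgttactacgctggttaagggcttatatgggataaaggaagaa
S100a8 lies at chr2:182962328-182962387, Slc27a5 at chr1:72934477-72934536, Kif11 at chr1:241682887-241683187, Myh13 at chr10:54086889-54086948 and Ldhc at chr1:97433896-97435065. The annotated intervals of Kif11 (301 bases) and Ldhc (1170 bases) are longer than the 60-base probe, so these probes are placed in pieces. Over all members, 7 of 22 probes (31.8%) had an interval longer than 66 bases, against 21.2% of the 17028 probes tested in the study (those passing background on all arrays of some group). Median GC content was 41.7% in members and 45.0% in tested probes. The 19 members with a chromosome lay on 14 chromosomes, 5 of them on chromosome 1, and no pair lay within 1 Mb of each other.

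Among genes on in Wistar, Cdc25a, a phosphatase that activates cyclin-dependent kinases at cell cycle entry, differed most. Its probe (chr8:114254799-114254857) read 9.02, 8.87, 8.80, 9.04 and 9.17 on the Wistar arrays, 1.05, 1.84, 1.68, 1.85 and 2.04 in GK-Sham-PF, and 1.07, 2.83, 2.39, 1.88 and 4.84 after RYGB, in GK-S-30. All Wistar arrays stood far above all GK arrays, of which the last, GK-S-30 replicate 5, was the only one well above background. Signal in Wistar was at least 53.6-fold that in GK-Sham-PF and at least 37.1-fold that in GK-S-30. These folds are lower bounds, computed with each dim array set to the higher of its own signal and the lowest signal called well above background on that array, and a dim array that was itself above background enters with its own value. The mean of the deposited matrix was 6.83 log2 lower in GK.

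Slc27a5 encodes bile acyl-CoA synthetase, a liver enzyme of bile acid conjugation that also activates fatty acids. Its probe read 6.17, 6.37, 5.10, 6.50 and 5.26 in Wistar, and on no GK array was it well above background (1.14 to 2.13 in GK-Sham-PF and 1.17 to 1.75 after RYGB). Wistar signal was at least 6.25-fold that of GK-Sham-PF. A second Slc27a5 probe, 608 bases away, was brighter and moved the same way: it averaged 8.77 ± 0.48 (SD, n = 5) in Wistar, 4.34 ± 0.21 in GK-Sham-PF and 3.61 ± 0.39 after RYGB, a GK mean 4.79 log2 lower in the deposited matrix. It was well above background on all 5 GK-Sham-PF arrays and on 1 of 5 GK-S-30 arrays. Both Slc27a5 probes thus read a lower level in GK, and the brighter one still measured some signal there.

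St8sia6, an alpha-2,8-sialyltransferase, Osbp2, an oxysterol-binding protein, Adcy10, the soluble adenylyl cyclase that responds to bicarbonate, and Ldhc, the lactate dehydrogenase known from testis, were well above background on no GK array. Their Wistar means were 5.43 ± 0.58, 5.34 ± 0.25, 4.72 ± 0.53 and 4.93 ± 0.42 (SD, n = 5). Wistar signal exceeded GK-Sham-PF at least 4.56-fold for St8sia6, 4.21-fold for Osbp2, 2.80-fold for Adcy10 and 3.24-fold for Ldhc. The bounds are modest because the Wistar signals themselves were low.

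The other 4 Wistar genes were seen on some GK arrays. Spock2, a testican proteoglycan of the extracellular matrix, was above background in GK-Sham-PF replicates 4 and 5 (3.57 and 3.81, against 5.54 to 6.41 in Wistar) and on no GK-S-30 array. Vit, the matrix protein vitrin, read 4.55, 5.17, 5.13, 4.41 and 4.19 in Wistar, 3.61, 4.51, 2.39, 3.01 and 2.78 in GK-Sham-PF and 1.60, 1.15, 1.51, 1.12 and 2.52 after RYGB. GK-Sham-PF replicates 1 and 2 were above background for Vit and replicate 2 reached into the Wistar range. Kif11, the kinesin motor of the mitotic spindle, was above background in GK-S-30 replicate 1 alone (3.48, against 4.12 to 5.11 in Wistar). Sult1c2, a cytosolic sulfotransferase, read 1.11 to 1.23 in GK-Sham-PF and 2.59, 2.50, 2.20, 3.61 and 1.74 after RYGB, where only replicate 4 was above background, against 3.98 to 4.87 in Wistar. Over the 10 Wistar genes, 4 of 50 readings were above background in GK-Sham-PF and 3 of 50 after RYGB, and no fold between the operations is given for probes at background.

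**Figure D1:**
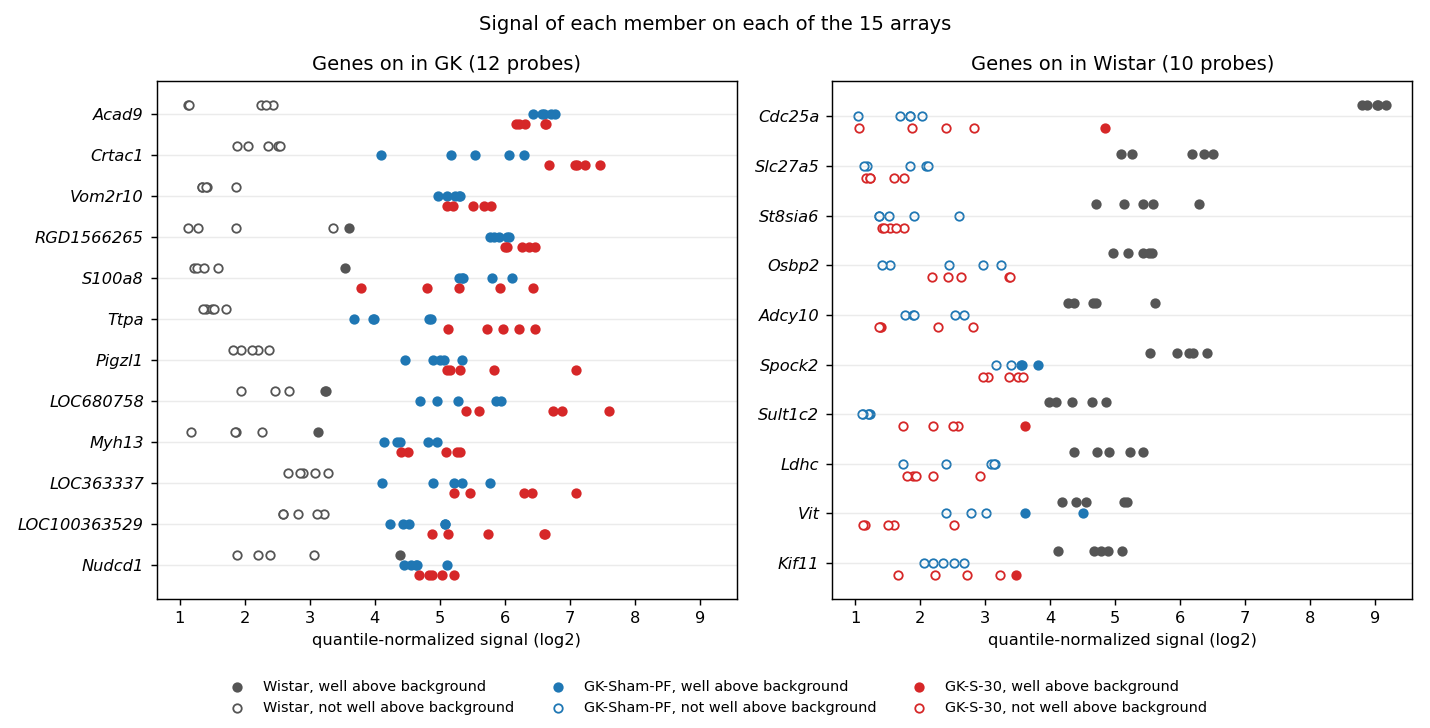
Quantile-normalized log2 signal (x axis) of the 22 member probes (rows) on each of the 15 arrays, with filled points well above background and open points not, in Wistar (grey), GK-Sham-PF (blue) and GK-S-30 (red), 5 arrays each. Cdc25a has the widest gap, with Wistar at 8.80 to 9.17, and the GK arrays of Crtac1 and Ttpa separate by operation.

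Among genes on in GK, Acad9, a mitochondrial flavoprotein needed to assemble respiratory complex I, differed most. Its probe (chr2:122586032-122586089) read 2.43, 2.24, 1.13, 2.33 and 1.15 in Wistar, 6.58, 6.60, 6.77, 6.71 and 6.43 in GK-Sham-PF, and 6.62, 6.17, 6.22, 6.31 and 6.63 after RYGB. No Wistar array was well above background, and GK-Sham-PF signal was at least 9.78-fold higher. Only 143 bases away, another Acad9 probe was well above background on all 15 arrays, at 10.17 ± 0.12 in Wistar, 10.99 ± 0.13 in GK-Sham-PF and 10.82 ± 0.16 after RYGB. The 2 Acad9 probes therefore gave unlike readings of the same gene, a difference of 4.65 log2 between the strains from one and 0.74 log2 from the other.

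S100a8 forms with S100a9 the calcium-binding heterodimer calprotectin of neutrophils and inflamed epithelium. The S100a8 probe read 1.59, 3.55, 1.23, 1.27 and 1.37 in Wistar, 5.29, 5.35, 5.81, 5.36 and 6.11 in GK-Sham-PF, and 3.79, 5.93, 6.43, 5.30 and 4.80 after RYGB. Wistar replicate 2 stood apart from the other Wistar arrays and was the only one above background. GK-Sham-PF signal was at least 4.64-fold higher than Wistar. A pair of further S100a8 probes was on no array well above background, and these are annotated on the opposite strand of chromosome 2. The partner gene S100a9, 25.3 kb from the S100a8 probe, read 4.97, 6.16, 4.88, 4.49 and 4.81 in Wistar, 6.71, 7.09, 7.11, 6.92 and 7.64 in GK-Sham-PF, and 6.23, 7.16, 8.09, 7.22 and 6.64 after RYGB. Wistar replicate 2 was again the highest Wistar array, and every GK array lay above it. S100a9 rose by 2.03 log2 (SE 0.33) in GK-Sham-PF and by 2.01 log2 (SE 0.33) after RYGB against Wistar (limma, adjusted p = 0.00093 and 0.00049). The S100a9 difference in GK-Sham-PF, with slide fitted as a fixed block, was 2.01 log2, an estimate that rests on 1 Wistar array. Of 5 myeloid markers (Cd68, Csf1r, Cd163, Lyz2, Itgam), 1 passed the test between GK-Sham-PF and Wistar, and it was lower in GK-Sham-PF: Itgam, the CD11b integrin chain, by 2.08 log2 (adjusted p = 6.4e-06). The other 4 did not pass: Csf1r differed by 0.29 log2, Cd68 by -0.08, Cd163 by -0.25 and Lyz2 by -0.16. The summed signal of the list, nearly all of it Lyz2 (15.80 ± 0.20 in Wistar), was 15.69 to 16.08 log2 in Wistar, 15.46 to 15.88 in GK-Sham-PF and 15.03 to 15.59 after RYGB. The part of myeloid cells in the S100a8 and S100a9 values was not tested.

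LOC680758, LOC363337 and LOC100363529 are predicted genes on unplaced sequence. The array annotation relates LOC680758 to a spermatogenesis associated glutamate-rich (SPEER) protein, a multicopy family known from rodent testis. In Wistar they read 1.95 to 3.26, 2.67 to 3.28 and 2.58 to 3.22. The LOC363337 probe read 5.22, 4.90, 5.35, 5.78 and 4.11 in GK-Sham-PF and 5.22, 7.09, 6.41, 5.46 and 6.30 after RYGB. The LOC680758 probe read 5.29, 4.96, 5.94, 5.87 and 4.70 and then 5.41, 7.60, 6.74, 5.61 and 6.88, and the LOC100363529 probe 4.53, 4.44, 5.08, 5.09 and 4.23 and then 4.88, 6.60, 6.61, 5.13 and 5.74. In all 3 probes replicates 2, 3 and 5 were the highest of GK-S-30, in differing order, and replicate 5 was the lowest of GK-Sham-PF. Elsewhere on the array, 13 other probes had at least 20 consecutive bases in common with one of the 3. Of these, 10 were well above background on 5 or more GK arrays, and all 10 were higher in GK, by 1.06 to 2.42 log2, while the 3 dimmer ones differed by -0.06 to 0.60. Only 4 of those 10 were on no Wistar array well above background. All 6 other LOC363337 probes were higher in GK, by 1.60 to 2.25 log2, but most of them were detected in Wistar. Some of the 6 are among those 13 and some overlap one another in position, so they are not separate readings. The probes averaging 5.18, 6.06 and 4.19 in Wistar were well above background on all 5 Wistar arrays, and that averaging 3.90 on 4 of 5. Probes with such stretches in common may read the same transcripts, which was not tested, and the identity of the 3 genes is therefore uncertain. Members on unplaced sequence made up 13.6% of the 22, against 0.769% of tested probes.

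Crtac1, an extracellular matrix protein of cartilage, and Ttpa, the liver alpha-tocopherol transfer protein that retains vitamin E, were on no Wistar array well above background (1.89 to 2.55 and 1.36 to 1.72), and their GK arrays are given with the operations. Vom2r10, a putative pheromone receptor, read 1.34 to 1.87 in Wistar, 4.98 to 5.31 in GK-Sham-PF and 5.12 to 5.78 after RYGB. Pigzl1, now Pigz, a mannosyltransferase of glycosylphosphatidylinositol anchors, read 1.82 to 2.38, 4.47 to 5.34 and 5.12 to 7.09. In RGD1566265, now Chmp1b2, an ESCRT-III component of membrane scission on chromosome X, Wistar replicate 3 was above background at 3.60, against 5.77 to 6.07 in GK-Sham-PF. Myh13, the myosin heavy chain of extraocular muscle, was above background in Wistar replicate 1 (3.14, against 4.15 to 4.96 in GK-Sham-PF), and a second Myh13 probe, dim throughout, was above background on no Wistar array and on 7 of 10 GK arrays. Nudcd1 sat closest to the threshold, at 2.02 log2, and its Wistar replicate 3 (4.39) all but touched the lowest GK array (4.45).

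Just outside the threshold, Klhl4 was 1.97 log2 higher in GK and Nlrp1b 1.97 log2 lower. GK and Wistar arrays did not overlap in 21 of the 22 members (all but Vit), beside 4.4% of 22466 named probes, a count that the rule itself largely fixes. Slide and strain were partly tied, since 4 Wistar arrays had a slide of their own, but 1 slide held Wistar replicate 1 beside GK-Sham-PF replicates 1 to 3. On it genes on in GK were 1.30 to 4.76 log2 higher in GK-Sham-PF and genes on in Wistar 1.05 to 7.49 log2 lower, with 1 Wistar array and on arrays that had chosen the members, so these values are no separate check of the direction.

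Other probes of the member genes bore on whether the pattern extended along the transcript. Of 9 genes with a further named probe, 7 had one that was tested, 12 probes in all. Among these tested probes, the difference was at least 0.5 times as large, in the same direction, in Slc27a5 and LOC363337 only. The second Myh13 probe, dim and not tested, also reached that, at 1.85 log2 against 2.67 for the member probe. In Sult1c2 another probe 3311 bases away was well above background on all 15 arrays and averaged 7.63 ± 0.21 in Wistar, 6.29 ± 0.40 in GK-Sham-PF and 6.89 ± 0.14 after RYGB, with a GK minus Wistar difference of -1.04 log2. For Kif11, Osbp2 and Spock2, the second probe was well above background on all 15 arrays and the strain means differed by 0.02, -0.11 and 0.15 log2, against -2.20, -2.77 and -2.65 for the member probes. Transcripts of Kif11, Osbp2, Spock2 and Acad9 were thus detected in both strains, with the on-off reading at 1 probe of the pair. Whether the strains differ in sequence or exon use at those probes was not tested.

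**Figure D2:**
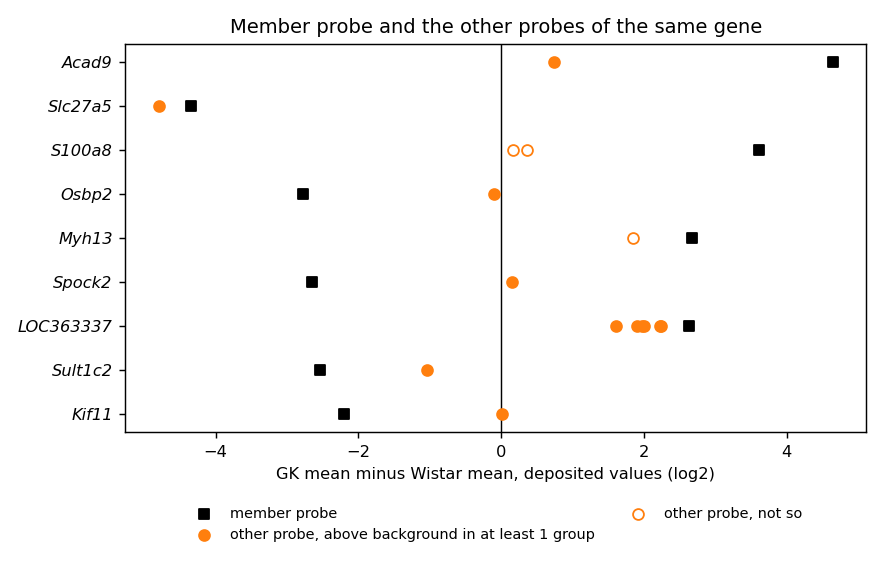
Difference between the GK and Wistar means (x axis, log2, deposited values) for the member probe (black square) and each other named probe (orange circle) of 9 member genes, filled where the probe passed background on all arrays of some group. Slc27a5 has both probes far to the left of 0, whereas the second probes of Kif11, Osbp2 and Spock2 lie within 0.15 of 0.

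Within the GK strain, the operations could be tested, since the rule took GK arrays together. Ttpa, Crtac1 and LOC100363529 rose in GK-S-30 and the other 9 genes on in GK did not pass the test. By limma with adjustment over 17028 probes, 3 of 12 were called, all higher in GK-S-30, where 4.77% of all tested probes were called higher (813) and 8.36% in either direction (1424). Means were higher in GK-S-30 for 10 of 12, with a median difference of 0.56 log2, beside -0.02 log2 over all tested probes. These means are a description only, since the rule favoured genes high in GK-S-30 and all tested probes were not chosen so. The LOC probes, which may read shared copies, also count there as separate genes.

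The Ttpa probe (chr5:34658943-34659002) read 3.98, 3.99, 4.87, 4.83 and 3.69 in GK-Sham-PF and 6.47, 6.21, 5.72, 5.13 and 5.97 after RYGB. Every GK-S-30 array lay above every GK-Sham-PF array, and the rise was 1.63 log2 (SE 0.25), or 3.09-fold (adjusted p = 0.0012). Against the background level of Wistar, Ttpa signal was at least 1.92-fold higher in GK-Sham-PF and at least 5.95-fold higher after RYGB. On the slide that held GK-Sham-PF replicates 4 and 5 beside GK-S-30 replicates 1 and 2, the difference was 2.08 log2. The fit with slide as a fixed block takes its estimate from that same slide and passed (adjusted p = 0.0169). The 2 values are therefore 1 estimate.

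Crtac1 (chr1:248570766-248571274) read 5.17, 4.09, 6.07, 6.29 and 5.54 in GK-Sham-PF and 7.23, 7.11, 7.08, 6.68 and 7.46 after RYGB. The groups again did not overlap, and the rise was 1.68 log2 (SE 0.32), or 3.20-fold (adjusted p = 0.0047). With slide as a fixed block, which again rests on 2 arrays of each group, the difference was 1.25 log2 and did not pass (adjusted p = 0.228). Ttpa and Crtac1 were the 2 of 12 genes whose operations did not overlap upwards, which held for 4.6% of tested probes.

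Among the LOC genes, LOC100363529 rose by 1.12 log2 (SE 0.31, adjusted p = 0.0381), with overlapping groups. LOC363337 differed by 1.02 log2 (SE 0.33, adjusted p = 0.0739) and LOC680758 by 1.10 log2 (SE 0.40, adjusted p = 0.108), neither past the threshold. The call of LOC100363529 was lost with slide as a fixed block (adjusted p = 0.348) and without any of GK-Sham-PF replicates 1, 2 or 5 or GK-S-30 replicates 2, 3 or 5 (adjusted p = 0.0711 to 0.088). All 6 other LOC363337 probes, some of which overlap one another, had higher means in GK-S-30, by 0.63 to 1.24 log2, and 2 of them passed. A probe of LOC301977, which has 33 bases in common with that of LOC680758, rose by 1.26 log2 (SE 0.35, adjusted p = 0.0352). A probe of RGD1564998, with 32 bases in common, differed by 1.32 log2 and did not pass (SE 0.54, adjusted p = 0.159).

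Pigzl1 differed by 0.74 log2 (SE 0.30, adjusted p = 0.156), with GK-S-30 replicate 3 at 7.09 and the other 4 at 5.12 to 5.83. S100a8 differed by -0.33 log2 (SE 0.48, adjusted p = 0.753) and Acad9 by -0.23 log2 (SE 0.24, adjusted p = 0.639). The differences of Vom2r10, RGD1566265, Myh13 and Nudcd1 lay between 0.24 and 0.39 log2. Among second probes of Wistar genes, that of Sult1c2 rose by 0.59 log2 in GK-S-30 (SE 0.17, adjusted p = 0.0389), and that of Slc27a5 differed by -0.73 log2 (SE 0.22, adjusted p = 0.0512).

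Some markers of other cell types moved in this comparison too, with 12 of 58 tested markers called (7 higher and 5 lower), beside 8.36% of all tested probes. Of the 14 lists, 7 held a call. Of 4 smooth muscle markers measured, 3 (Des, Cnn1 and Tagln) rose in GK-S-30 by 1.45 to 2.23 log2, and the summed list was 13.70 to 14.77 in GK-Sham-PF and 15.42 to 15.80 after RYGB. Of 5 T cell markers, 3 (Cd3e, Cd3g and Cd3d) fell by 0.47 to 0.76 log2, and the sums were 12.94 to 13.48 and 12.53 to 12.93. Of 4 enteroendocrine markers, Sct rose by 0.90 log2 and Gcg by 0.42 log2, and the sums were 13.95 to 14.64 and 14.78 to 15.14. The goblet marker Clca1 rose by 0.73 log2, the mast cell protease Mcpt1 fell by 0.89 log2 and the acinar gene Ctrb1 fell by 0.92 log2. Each was the only marker called in its list. Sums were 18.08 to 18.26 and 18.10 to 18.49 (goblet), 12.46 to 13.30 and 11.63 to 12.55 (mast cell), and 11.90 to 12.48 and 11.90 to 12.29 (acinar). Other acinar markers went both ways without passing: Prss1 differed by 1.71 log2, Cela1 by 0.16 and Cel by -0.32. Of 4 hepatocyte markers, Apoh alone was called, 1.32 log2 higher, above background on 2 of 5 arrays in GK-Sham-PF and on 5 of 5 after RYGB, and the sums were 6.70 to 7.45 and 6.32 to 8.24. None of 12 enterocyte markers was called. In whole tissue, more cells of a type and more RNA per cell cannot be told apart, and the part of these shifts in the rise of Ttpa, Crtac1 and LOC100363529 was not tested.

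**Figure D3:**
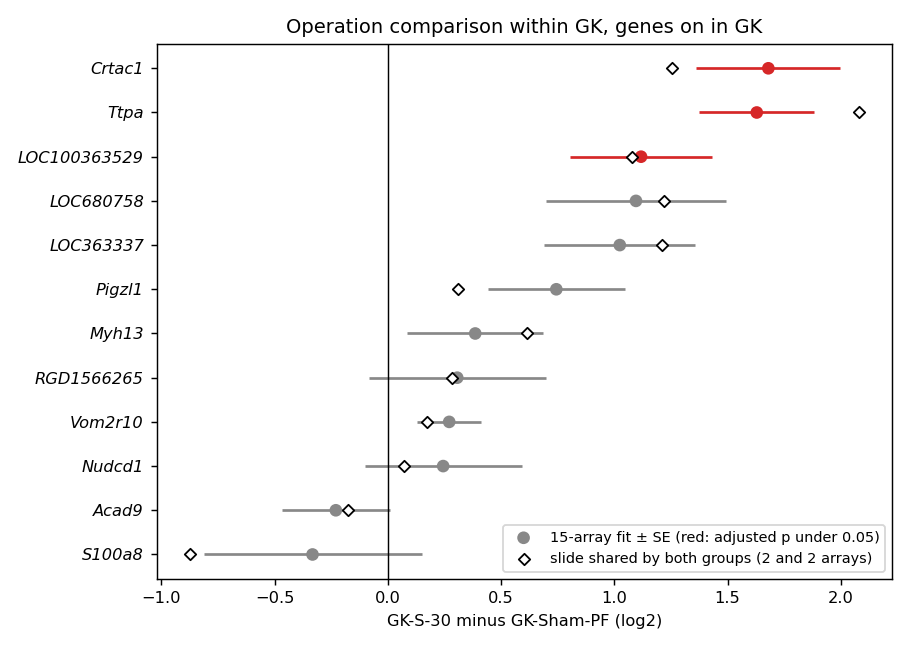
GK-S-30 minus GK-Sham-PF (x axis, log2) for the 12 genes on in GK: circles with bars are estimates ± SE from the fit to 15 arrays, red where adjusted p is under 0.05, and diamonds are differences on the slide with 2 arrays of each group. Crtac1, Ttpa and LOC100363529 are red, and Acad9 and S100a8 are the pair left of 0.

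Finally, the genomic surroundings of the 19 placed members were compared between strains, using position alone to choose the genes. Within 1 Mb lay 254 other tested genes, of which 29 (11.4%) differed between GK-Sham-PF and Wistar (12 higher and 17 lower in GK-Sham-PF), beside 8.42% of all 13022 tested genes. Between GK-S-30 and Wistar, with the same Wistar arrays, 73 (28.7%) differed, beside 25.5% of all genes. Within 0.5 Mb 20 of 159 genes (12.6%) differed in GK-Sham-PF and within 2 Mb 42 of 521 (8.06%), and no test of the change with distance was run. With slide as a fixed block 4 neighbours (1.57%) differed in GK-Sham-PF, beside 1.31% of all genes, and 19 did without Wistar replicate 4, GK-Sham-PF replicate 2 or GK-Sham-PF replicate 4. The slide-block fit rests on 1 Wistar array here, so its lost calls cannot be read as an effect of slide. The median absolute difference in GK-Sham-PF was 0.17 log2 in neighbours and 0.15 log2 in all genes.

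The neighbour with the smallest adjusted p was Bdh1, the mitochondrial 3-hydroxybutyrate dehydrogenase of ketone metabolism, 477 kb from the Pigzl1 probe. Bdh1 fell by 1.65 log2 in GK-Sham-PF (SE 0.12, adjusted p = 1.81e-07), from 10.47 ± 0.12 to 8.82 ± 0.26, opposite in direction to Pigzl1. C1ql3, a secreted C1q-like protein 650.3 kb from St8sia6, fell by 1.45 log2 (SE 0.11, adjusted p = 2.38e-07), in the direction of St8sia6. At S100a8, beside S100a9, the S100 genes S100a13 and S100a1 rose by 0.78 and 0.82 log2 (adjusted p = 0.00074 and 0.0023), while the other 4 of the 7 S100 genes tested there did not pass (-0.38 to 0.22 log2, adjusted p = 0.347 to 0.994). In all, 4 of 28 neighbours of S100a8 were called. Near Cdc25a, Tma7, a translation machinery associated protein 164 kb away, rose by 0.56 log2 (adjusted p = 3.00e-04) while 3 other neighbours called fell. Pogk near Adcy10 (-0.51 log2), Mccc1 near Acad9 (-0.52), Cep19 near Pigzl1 (-0.71) and Limk2 near Osbp2 (-0.53) complete the 10 neighbours of smallest adjusted p, and all 4 fell (adjusted p = 0.0012 to 0.0034). With slide as a fixed block, which rests on the slide with 1 Wistar array, Bdh1 differed by -1.72 log2 and C1ql3 by -1.48 log2. All 10 kept their sign there. They were picked by this comparison on the same arrays, so the sign is no separate check. Next to Ldhc, its paralog Ldha, 26.2 kb away, differed by -0.04 log2 (adjusted p = 0.928), and Sult1c2a, 33.2 kb from Sult1c2, by -0.08 log2 (adjusted p = 0.855).

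**Figure D4:**
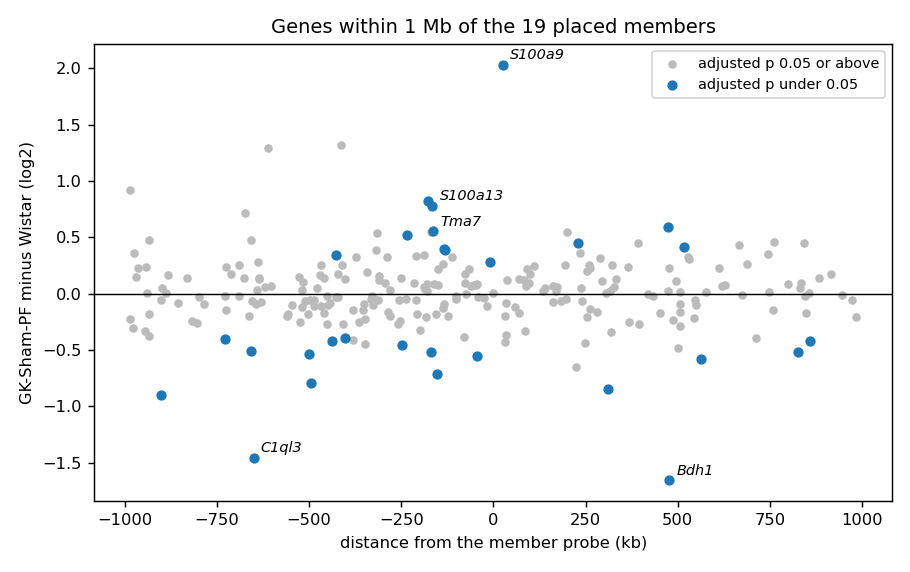
Difference between GK-Sham-PF and Wistar (y axis, log2) of the 254 tested genes within 1 Mb of a placed member, by distance from the member probe (x axis, kb), blue where adjusted p is under 0.05. S100a9, at 25.3 kb, stands highest at 2.03, and Bdh1 and C1ql3 lie lowest.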

How the data were processed

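Intestinal RNA of 15 rats was measured, 1 single-dye Agilent array per rat. The authors deposited intensity values per spot as Feature Extraction 10.7.3.1 wrote them (background-subtracted processed signal, mean signal, background), and a matrix of log2 values quantile-normalized by the authors. Control and outlier spots (52 to 109 per array) were left out, no spot was saturated, the spots of each of 41012 probes were averaged, and quantile normalization of log2 signals used limma 3.58.1 (R 4.3.3). The share of probes well above background was 66.8% to 74.8% per array, and the median SE of a log2 fold change was 0.149. The number of arrays limits precision. Arrays of a group are separate rats.

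The 17028 named probes that passed background on all arrays of some group were fitted in 1 limma model (lmFit, eBayes), adjusted by Benjamini-Hochberg at 0.05. On simulated data of that size, 29.9%, 86.6% and 98.5% of changes of 0.5, 1 and 2 log2 after RYGB against GK-Sham-PF were recovered, with 14 unchanged probes called. Probe positions are the files' rn4 annotation. Symbols were updated through RefSeq (GRCr8): 17873 probes matched by accession, 2868 by symbol and 519 by synonym, and the file's own name stood for 1243. The brightest tested probe stood for each neighbour gene. All 22 members are named, with the 10 neighbours of smallest adjusted p between GK-Sham-PF and Wistar. Nearest neighbours that are paralogs, the LOC family probes and the 2 genes beside the threshold were named after their values were seen. Members, marker lists and tests were chosen with earlier results of these data known. Alternatives were other scalings, background correction, filters, slide and replicate blocks, Tukey comparisons as in the study's methods, other distances and leaving out each array. With slide as a fixed block, the estimate of GK-S-30 against GK-Sham-PF rests on 2 arrays of each group. That of GK-Sham-PF against Wistar rests on a slide with 1 Wistar array. Calls lost in that fit can therefore not be read as effects of slide. The rat genome sequence was not used here.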

Additional observations from a re-analysis of the deposited data

Results flagged for a closer look

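Among 66 groups of 5 values (22 members in 3 groups), 2 held an array far from the other 4, where chance would flag about 3.3. In S100a8, Wistar replicate 2 read 3.55 log2, the other Wistar arrays 1.23 to 1.59, and it was the only Wistar array well above background. S100a9 was also highest on that array among Wistar. In Vom2r10, Wistar replicate 1 read 1.87 log2 against 1.34 to 1.42, all not well above background.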

How the results depend on the processing

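The number of genes depended on the rule more than on the scaling. A difference of 1.5 log2 gave 16 genes on in GK and 16 on in Wistar, and 3 log2 gave 8 and 3. Allowing no array of the dim strain above background left 7 and 5. With processed signals quantile-normalized here all 22 genes were found again, and leaving out 1 array gave 11 to 15 on in GK and 10 to 12 on in Wistar.

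For the operations within GK, 1 of the 12 genes on in GK passed with slide as a fixed block (327 probes in all) and 2 to 4 passed in every other alternative, with 2 to 4 when 1 array was left out. Ttpa passed in all 27 alternatives (1.07 to 2.08 log2). Crtac1 passed in 26 and not with slide as a fixed block (1.25 log2, adjusted p = 0.228). LOC100363529 passed in 16 and failed at 1.08 log2 with slide as a fixed block and at an unmoved 1.12 log2 without a filter on dim probes, with the Tukey comparison of the study's methods after Benjamini-Hochberg, and with the 10 GK arrays alone, and it ranged from 0.91 to 1.35 log2 with 1 array left out. LOC680758 passed with normexp background correction (0.90 log2, adjusted p = 0.0329). LOC363337 passed at 1.02 log2 by the Tukey comparison unadjusted over probes and without GK-Sham-PF replicate 4, GK-S-30 replicate 1 or GK-S-30 replicate 4, in a range of 0.78 to 1.24 log2. S100a8 turned to 0.033 log2 without GK-S-30 replicate 1, in a range of -0.63 to 0.03. The cause of these changes was not tested.

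Neighbours that differed from Wistar numbered 4 (GK-Sham-PF) and 7 (GK-S-30) with slide as a fixed block, and 17 and 47 by the Tukey comparison after Benjamini-Hochberg. Within 0.5 Mb 20 (12.6%) and 47 (29.6%) of 159 differed, and within 2 Mb 42 (8.06%) and 134 (25.7%) of 521, beside 8.42% and 25.5% of all genes. Leaving out 1 array gave 19 to 33 and 61 to 82. Replicate numbers did not pair the rats, since the deviations of arrays with the same number correlated at -0.291 to 0.202. With the replicate block, 2 of the 12 genes on in GK passed and LOC100363529, at 1.12 log2, did not (adjusted p = 0.0571), 963 probes passed in all instead of 1424, and 21 and 58 neighbours differed. Low signal limits all values of the dim strain, which are bounds.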

Other observations

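Besides the named genes, 34 probes without a gene name met the same signal conditions, 12 on in GK and 22 on in Wistar. Only 1 of them lay within 1 Mb of a member, 14.3 kb from the Pigzl1 probe, and it was on in Wistar, with a GK mean 2.75 log2 lower, whereas Pigzl1 was on in GK.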
